A study of Mus musculus with 25 samples.

Results

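Purinergic receptors and the enzymes that break down extracellular nucleotides were examined in microglia of mice that lack Bin1 in neurons. The set holds 7 genes of 43411 in the table, chosen by symbol. They are the ADP receptors P2ry12 and P2ry13, the UDP receptor P2ry6, the ATP-gated channels P2rx4 and P2rx7, the adenosine receptor Adora3 and the ectonucleotidase Entpd1. All 7 were found in the table under 1 identifier each. RNA was sequenced from microglia sorted as CD11b+ CD45med cells, with 1 library per mouse from 23 mice at 3 months of age. The mice were 10 Homo-cKO (Bin1 flox/flox with Thy1-Cre+, 5 females and 5 males), 7 Het-cKO (Bin1 flox/wt with Thy1-Cre+, 4 females and 3 males) and 6 WT (Bin1 flox/wt with Thy1-Cre-, 2 females and 4 males). The floxed line was B6.129S6-Bin1tm2Gcp/J and the Cre line FVB/N-Tg(Thy1-cre)1Vln/J. The WT group thus carried 1 floxed Bin1 allele without Cre, and the Homo-cKO mice differed from it by a floxed allele as well as by Cre. As the study describes the line, the Thy1 promoter drives Cre after birth in excitatory neurons of the forebrain. On that description the sorted cells were not the cells targeted.

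ATP and ADP that leak from active or damaged cells act on microglia through P2Y receptors, which couple to G proteins, and through P2X receptors, which are ion channels. Entpd1 (CD39) on the microglial surface breaks ATP and ADP down to AMP, and the adenosine formed from AMP acts on adenosine receptors. In resting microglia P2ry12 guides the extension of processes toward sources of nucleotide, and a fall of its transcript is widely used as a mark of microglia that leave this state.

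Total counts ranged from 10812969 to 16734846 per mouse, and 12908 genes had enough counts to be tested. Values are CPM, the counts of a gene in each 1000000 counts of the TMM-normalized library. All 7 members were tested, and the lowest value of any member in any mouse was 113 CPM, or 1423 counts, so counting error was small beside the spread between mice. Bin1 itself, which encodes a membrane-bending adaptor protein, was at 599.7 to 814 CPM in WT mice, 629 to 747 CPM in Het-cKO mice and 327.6 to 673 CPM in Homo-cKO mice. Its log2 fold change in Homo-cKO against WT mice was -0.60 (SE 0.12, edgeR adjusted p = 0.00173). Bin1 was thus lower in the sorted cells too, and whether Cre had acted in them was not tested. The animal numbers in the titles were of the form 02xx for all WT and Het-cKO mice and 03xx (6 mice) or 04xx (4 mice) for Homo-cKO mice, so that genotype and animal-number range cannot be told apart in comparisons with Homo-cKO mice. Fos, an immediate-early gene, was between 824 and 1459 CPM in the Homo-cKO mice F1, F2, M1 and M2 (numbered by sex within a genotype) and below 10 CPM in the other mice. These 4 mice were all of the range 03xx. The 14 microglia markers (among them Cx3cr1 and Tmem119) were all tested, and their summed level was 66704 to 95505 CPM in WT mice, 64623 to 85079 CPM in Het-cKO mice and 58905 to 69371 CPM in Homo-cKO mice.

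Levels of different genes were compared per kilobase of exon, with all annotated exons of a gene joined. The length of the transcripts in these cells was not measured, so such comparisons are approximate. In mean CPM without this division P2rx7 (275) was above Adora3 (179). P2ry12 was the most abundant member with 3596 ± 519.6 CPM per kb (SD, n = 23 mice). P2ry13 followed with 1499.97 ± 299, Entpd1 with 180.2 ± 22.8 and P2ry6 with 135 ± 12.5 CPM per kb. Both ADP receptors thus stood far above the other 5 members in every mouse. Adora3 had 48.0 ± 4.17, P2rx7 46.1 ± 5.72 and P2rx4 19.8 ± 2.25 CPM per kb. Within each mouse the order was the same in all 23 mice except between Adora3 and P2rx7, where Adora3 was higher in 16 mice. The ranges of Adora3 and P2rx7 over mice overlapped, as did those of Entpd1 and P2ry6, although Entpd1 was above P2ry6 in each mouse by a factor of 1.34 ± 0.130 (SD, n = 23).

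**Figure D1:**
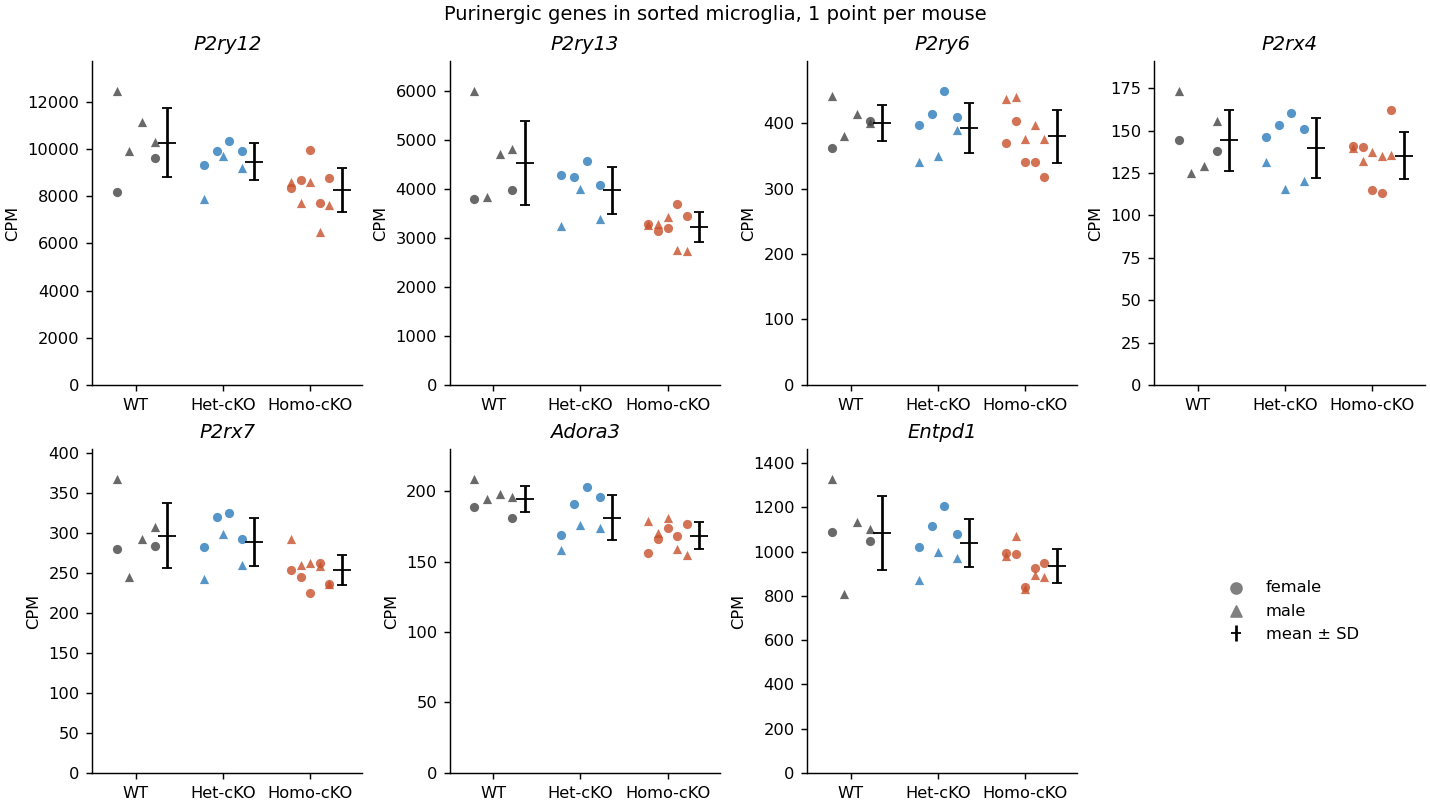
CPM of each of the 7 purinergic genes (vertical axes from 0) in WT, Het-cKO and Homo-cKO mice, with 1 point per mouse (circles, females, triangles, males) and the mean ± SD beside each group. For P2ry13 and Adora3 all 10 Homo-cKO mice lie below all 6 WT mice, while the groups overlap for the other 5 genes.

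The first question was whether loss of Bin1 in neurons changed these genes in microglia. Homo-cKO mice had less P2ry13, P2ry12 and Adora3 transcript than WT mice, with fitted changes of -29.6%, -20.3% and -13.6%. The other 4 members, P2rx7, Entpd1, P2rx4 and P2ry6, did not pass the test at an adjusted p below 0.05 (edgeR quasi-likelihood test, Benjamini-Hochberg adjustment over all 12908 genes). Thus 3 of 7 members were called, all lower, against 12.7% of all genes tested called in either direction, 7.09% called lower and 5.66% called higher. None of the 7 exceeded a 1.5-fold change as well, the study's second threshold, which 3.4% of all genes tested did. The log2 fold change was negative for 7 of 7 members with a median of -0.22, beside a median of 0.01 over all genes tested.

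P2ry13, an ADP receptor coupled to inhibitory G proteins, ranged from 3792 CPM in the lowest WT mouse over a median of 4354 to 6011 in the highest. In Het-cKO mice the lowest, median and highest values were 3249, 4081 and 4563 CPM, and in Homo-cKO mice 2728, 3274 and 3697 CPM. Every Homo-cKO mouse was below every WT mouse, while Het-cKO mice overlapped with both groups. Of all genes tested, 1.14% had all Homo-cKO mice below all WT mice. Its log2 fold change in Homo-cKO against WT mice was -0.51 (SE 0.09, edgeR adjusted p = 0.000952). The WT male M1 had the highest value of any mouse, and without it the log2 fold change was -0.41 (SE 0.08, edgeR adjusted p = 0.00380).

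P2ry12, the ADP receptor of process extension, had the largest count of any member. The lowest, median and highest values were 8183, 10113 and 12490.0 CPM in WT mice, 7885, 9698 and 10341 CPM in Het-cKO mice and 6498, 8466 and 9986 CPM in Homo-cKO mice. All 10 Homo-cKO mice lay below the WT median, but only 4 lay below every WT mouse, because the WT female F1 was low. The log2 fold change was -0.33 (SE 0.08, edgeR adjusted p = 0.0103), and it was called in each of the 16 fits that left out a WT or Homo-cKO mouse, with adjusted p between 0.00285 and 0.0432. P2ry12 and P2ry13 lie 5.4 kb apart on the same strand of chromosome 3 (GRCm38 59216272-59262871 and 59207892-59210882, both on the minus strand), inside the gene Med12l on the other strand. Whether counting used strand is not given in the sources used here. Med12l, which encodes a Mediator subunit, was at 31.2 to 76.3 CPM over all mice, it shares 9 exonic bases with P2ry12 and none with P2ry13, and its log2 fold change in Homo-cKO against WT mice was -0.09 (SE 0.15, edgeR adjusted p = 0.735).

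Adora3, the adenosine A3 receptor, had the smallest spread of the members in WT mice, 194 ± 9.41 CPM (SD, n = 6). The lowest, median and highest values were 181, 195 and 209 CPM in WT mice, 158, 176 and 203 CPM in Het-cKO mice and 155, 169 and 181 CPM in Homo-cKO mice. The groups WT and Homo-cKO did not overlap, but the highest Homo-cKO mouse (180.84 CPM) and the lowest WT mouse (180.88 CPM) were nearly equal. Its log2 fold change was -0.21 (SE 0.06, edgeR adjusted p = 0.0177), and without the WT male M1 the adjusted p was 0.0632 at a log2 fold change of -0.19. Adora3 lies on chromosome 3 (GRCm38 105870858-105908926, plus strand) and shares 20.9% of its exonic bases with Tmigd3, an overlapping gene on the same strand, so that its reads can be split between both. Tmigd3 was at 0.359 to 1.44 CPM in all mice, far below Adora3.

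The sequences upstream of the start sites of these 3 genes are shown because the genes were lower together in Homo-cKO mice. They are the 250 bases before the RefSeq start (GRCm38.p6), P2ry13 at chr3:59210883-59211132 (minus strand), P2ry12 at chr3:59262986-59263235 (minus strand) and Adora3 at chr3:105904171-105904420 (plus strand). The Adora3 window lies inside the annotated gene, which begins further upstream at 105870858. Its distances below hold for this RefSeq start only. Capitals mark matches on either strand to GAGGAA (the core bound by PU.1, a microglial lineage factor), TGANTCA (bound by AP-1, the family of Fos), CACGTG (an E-box) or the interferon response element (GAAA, any 2 bases, then GAAA).
P2ry13: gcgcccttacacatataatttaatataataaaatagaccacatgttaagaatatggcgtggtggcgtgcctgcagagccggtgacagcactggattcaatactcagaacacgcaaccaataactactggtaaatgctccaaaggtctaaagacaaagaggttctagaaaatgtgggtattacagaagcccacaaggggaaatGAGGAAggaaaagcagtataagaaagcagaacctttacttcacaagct
P2ry12: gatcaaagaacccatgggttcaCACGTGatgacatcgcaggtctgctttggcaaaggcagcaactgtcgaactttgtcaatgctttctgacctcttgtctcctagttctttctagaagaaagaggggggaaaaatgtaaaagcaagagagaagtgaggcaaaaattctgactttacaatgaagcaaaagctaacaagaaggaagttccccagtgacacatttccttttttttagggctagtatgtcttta
Adora3: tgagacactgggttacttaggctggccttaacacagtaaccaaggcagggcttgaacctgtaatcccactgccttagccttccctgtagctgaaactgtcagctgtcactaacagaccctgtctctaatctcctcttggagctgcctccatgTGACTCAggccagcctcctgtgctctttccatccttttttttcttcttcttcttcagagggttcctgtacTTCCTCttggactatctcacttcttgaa
P2ry13 held 1 match to GAGGAA, 48 bases before the start. P2ry12 held 1 match to CACGTG, 228 bases before the start, and none to the other 3. Adora3 held 1 match to GAGGAA, read on the other strand as TTCCTC 28 bases before the start, and 1 to TGANTCA, 98 bases before it. No motif was present in all 3. Of 32851 RefSeq start sites, 23.3% held GAGGAA in the same window, 6.75% held TGANTCA, 6.02% held CACGTG and 2.98% held the interferon response element. These motifs do not overlap each other in the sequences shown. Upstream sequences were matched for 6 of the 7 members, all but P2ry6, with a pair of start sites each for P2rx7 and Entpd1. Among the start sites of the members that were not called, the upstream one of P2rx7 held TGANTCA once, the downstream one of Entpd1 held GAGGAA 2 times, and P2rx4 held none of the 4.

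P2rx7, the channel that opens at high ATP and feeds the NLRP3 inflammasome, was at 245, 288 and 368 CPM (lowest, median and highest) in WT mice, at 242, 292 and 325 CPM in Het-cKO mice and at 225, 256 and 293 CPM in Homo-cKO mice. Of the 10 Homo-cKO mice, 9 lay below the WT median. Its log2 fold change was -0.22 (SE 0.08, edgeR adjusted p = 0.0597), and DESeq2 gave an adjusted p of 0.0459. P2rx7 thus lay at the threshold and its call differed between tools. P2rx4, the other ATP-gated channel, was at 125, 141 and 174 CPM in WT mice, 115, 147 and 161 CPM in Het-cKO mice and 113, 136 and 162 CPM in Homo-cKO mice. The log2 fold change was -0.11 with a 95% interval of -0.27 to 0.06 (edgeR adjusted p = 0.444), and it was -0.043 without the WT male M1. P2rx4 and P2rx7 are neighbours on chromosome 5, 16.1 kb apart on the plus strand.

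Entpd1, the enzyme that removes extracellular ATP and ADP, was at 807, 1094 and 1330.2 CPM in WT mice, 870.1, 1020.5 and 1206 CPM in Het-cKO mice and 833, 939 and 1073 CPM in Homo-cKO mice. All 10 Homo-cKO mice lay below the WT median, yet none lay below the lowest WT mouse, the male M2. The log2 fold change was -0.22 (SE 0.08, edgeR adjusted p = 0.0739). Without the WT male M2 it was -0.29 and was called (edgeR adjusted p = 0.0116), as was P2rx7 with -0.27 (edgeR adjusted p = 0.0215), which makes 5 members called in that fit. P2ry6, the UDP receptor linked to phagocytosis, was at 363, 402 and 442 CPM in WT mice, at 341, 397 and 449.9 CPM in Het-cKO mice and at 317, 376 and 439.5 CPM in Homo-cKO mice. Its groups overlapped almost fully, and the log2 fold change was -0.07 with a 95% interval of -0.21 to 0.07 (edgeR adjusted p = 0.589), and it was -0.042 without the WT male M1.

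Lists of cell type markers and of immediate-early genes were set beside these differences, and not all of them differed between genotypes. Of the 14 microglia markers, 7 were called lower in Homo-cKO than in WT mice and none was called higher, with a median log2 fold change of -0.23, close to that of the 7 members. Of all genes tested, 7.09% were called lower. The 8 neuron markers summed to 12.0 to 35.8 CPM in WT mice, 12.7 to 31.8 CPM in Het-cKO mice and 4.89 to 8.60 CPM in Homo-cKO mice, with Slc17a7 and Syt1 too low to be tested. Of the 6 tested, Snap25 (-2.52), Nrgn (-2.76) and Gad1 (-3.13) were called lower in Homo-cKO than in WT mice (edgeR adjusted p = 8.96e-05, 0.00028 and 0.0184). The 8 monocyte, neutrophil and lymphocyte markers summed to 4.63 to 20.5 CPM in WT and 11.8 to 56.1 CPM in Homo-cKO mice, with Nkg7 listed at 0 in every mouse. Of the 4 tested, Ccr2 alone was called, and it was higher in Homo-cKO than in WT mice (1.28, edgeR adjusted p = 0.000812). The 7 border macrophage markers summed to 6.90 to 31.6 CPM in WT and 5.94 to 38.2 CPM in Homo-cKO mice, and Mrc1 was listed at 0 in every mouse. None of the 6 border macrophage markers tested was called. The 8 endothelial and mural markers summed to 44.2 to 82.1 CPM in WT and 36.8 to 60.9 CPM in Homo-cKO mice, with Cldn5 listed at 0 in every mouse and Pecam1 called lower (-0.49, edgeR adjusted p = 0.0209). The 7 astrocyte markers summed to 235 to 268 CPM in WT and 231 to 310 CPM in Homo-cKO mice, with Aldoc called lower (-1.61, edgeR adjusted p = 0.00616). Most of that sum was Slc1a3, with means of 245 CPM in WT and 270 CPM in Homo-cKO mice (0.12, edgeR adjusted p = 0.315). Of the 5 astrocyte markers tested, 4 had a negative log2 fold change, and the median was -0.60. The 7 oligodendrocyte markers summed to 179 to 253 CPM in WT and 153 to 209 CPM in Homo-cKO mice. Of these, Mbp (-0.56, edgeR adjusted p = 0.0404) and Mobp (-1.69, edgeR adjusted p = 0.0219) were called lower. The 15 immediate-early genes summed to 462 to 622 CPM in WT and 588 to 13247 CPM in Homo-cKO mice. The part of all these lists in the result was not tested. In sorted bulk RNA fewer cells of a type and less RNA per cell cannot be told apart. Without the 4 Homo-cKO mice of high Fos, a choice made after seeing the data, P2ry13 and P2ry12 had log2 fold changes of -0.52 and -0.34 against WT mice (edgeR adjusted p = 0.00749 and 0.0442), Adora3 missed the threshold at -0.21 (edgeR adjusted p = 0.0543) and Entpd1 passed it at -0.30 (edgeR adjusted p = 0.0410).

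**Figure D2:**
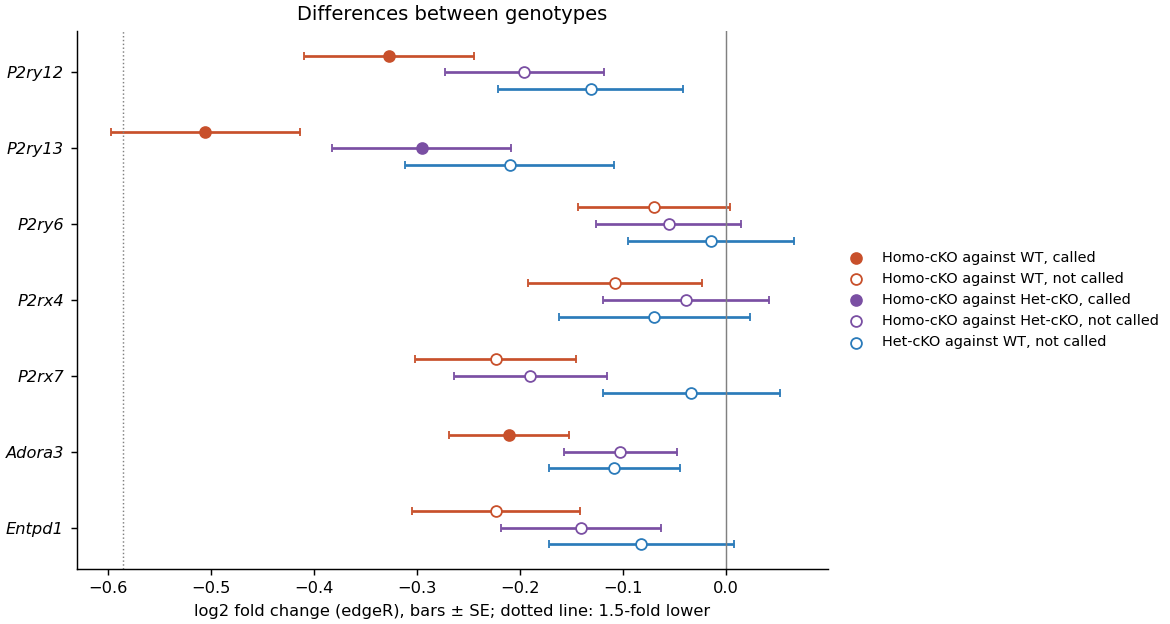
Log2 fold changes of the 7 purinergic genes (rows) between genotypes from the edgeR fit, with bars of ± SE, filled points where the adjusted p was below 0.05 and a dotted line at 1.5-fold lower. P2ry13, P2ry12 and Adora3 are called in Homo-cKO against WT mice, P2ry13 alone in Homo-cKO against Het-cKO mice, and none in Het-cKO against WT mice.

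The Homo-cKO mice of each animal-number range were also set against the WT mice alone. The 6 mice numbered 03xx had P2ry13 at 3132 to 3433 CPM, and the 4 numbered 04xx had it at 2728 to 3697 CPM. Both ranges were below all WT mice, with log2 fold changes of -0.47 (SE 0.10, edgeR adjusted p = 0.00605) and -0.55 (SE 0.13, edgeR adjusted p = 0.0161). P2ry12 was at 7721 to 9986 CPM in the 6 mice and at 6498 to 8774 CPM in the 4 mice. It was called in the 4 mice against WT (-0.43, SE 0.11, edgeR adjusted p = 0.0208) but not in the 6 mice (-0.25, SE 0.09, edgeR adjusted p = 0.0738). Adora3 was called in neither, with -0.18 in the 6 mice (edgeR adjusted p = 0.0821) and -0.25 in the 4 mice (edgeR adjusted p = 0.0559). Tested against each other, the ranges gave no call for any member, against 0.442% of all genes tested, and the largest difference was 0.18 for P2ry12 (SE 0.10, unadjusted p = 0.0860 from edgeR's fit over all genes, adjusted p = 0.599).

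The second question was whether loss of 1 Bin1 copy in neurons was enough. No member was called in Het-cKO against WT mice, and neither was any gene tested by edgeR (0.0%), where 998 genes had an unadjusted p below 0.05 and DESeq2 called 8 genes. The difference was largest for P2ry13, with a log2 fold change of -0.21 (SE 0.10, unadjusted p = 0.0483, adjusted p = 0.642 from edgeR), then for P2ry12 with -0.13 (SE 0.09) and Adora3 with -0.11 (SE 0.06). These values moved with single WT mice. Without the male M1 P2ry13 was at -0.11 and P2ry12 at -0.069, and without the female F1 P2ry12 was at -0.22. All 7 values were negative, from -0.21 to -0.01, with a median of -0.08. The Het-cKO and WT mice overlapped for each member. The 95% intervals reached down to -0.41 for P2ry13, -0.31 for P2ry12 and -0.23 for Adora3, beside estimates of -0.51, -0.33 and -0.21 in Homo-cKO mice against the same WT mice. In females alone (4 Het-cKO against 2 WT) all 7 differences were positive, from 0.04 for Adora3 to 0.15 for P2ry12, and none was called. In males alone (3 Het-cKO against 4 WT) all 7 were negative, from -0.20 for P2rx7 and P2ry6 to -0.47 for P2ry13, and none was called either. P2ry13 had the lowest unadjusted p in males (-0.47, SE 0.14, unadjusted p = 0.00472, adjusted p = 0.488 from edgeR), and P2ry12 had -0.31 (SE 0.11, unadjusted p = 0.0150, adjusted p = 0.488 from edgeR). Adora3 had -0.25 and P2rx4 -0.27 in males, both beyond their values over both sexes. The difference between the sexes was not tested for this comparison.

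Het-cKO mice share Thy1-Cre with Homo-cKO mice and differ from them by 1 floxed Bin1 allele. P2ry13 was lower in Homo-cKO than in Het-cKO mice (-0.30, SE 0.09, edgeR adjusted p = 0.0164), and it was the 1 member of 7 called, against 11.7% of all genes tested called lower. All 10 Homo-cKO mice were below the Het-cKO median and 5 of 7 Het-cKO mice were above every Homo-cKO mouse. No member had all Homo-cKO mice below all Het-cKO mice, which 0.953% of all genes tested had. P2ry12 and P2rx7 came next, with log2 fold changes of -0.20 (SE 0.08, edgeR adjusted p = 0.0688) and -0.19 (SE 0.07, edgeR adjusted p = 0.0658). Adora3 (-0.10, SE 0.06), Entpd1 (-0.14, SE 0.08), P2ry6 (-0.06, SE 0.07) and P2rx4 (-0.04, SE 0.08) were not called. Homo-cKO mice are the same animals in both comparisons, so these do not stand as separate evidence. Without the 4 mice of high Fos no member was called in this comparison, with P2ry13 at -0.30 (edgeR adjusted p = 0.0625).

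**Figure D3:**
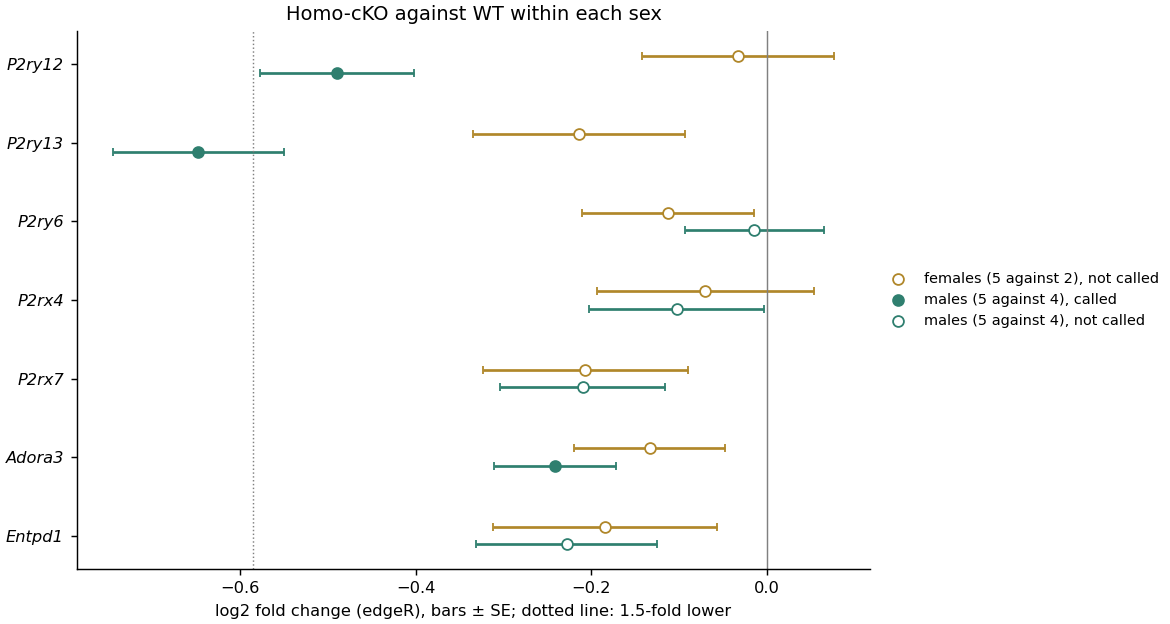
Log2 fold changes of Homo-cKO against WT mice for the 7 purinergic genes (rows) in females (5 against 2 mice) and males (5 against 4 mice), with bars of ± SE from the edgeR fit of genotype and sex and filled points where the adjusted p was below 0.05. P2ry12 and P2ry13 lie further below 0 in males than in females, a difference that did not pass the test.

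In a fit of genotype and sex together, P2ry13, P2ry12 and Adora3 were called lower in Homo-cKO males, against 3.93% of all genes tested called lower, and no member was called in females, against 0.287%. When only the males were fitted, P2ry13 and P2ry12 were called and Adora3 was not (-0.25, edgeR adjusted p = 0.102). P2ry13 was at 3834 to 6011 CPM in the 4 WT males and at 2728 to 3433 CPM in the 5 Homo-cKO males, with a log2 fold change of -0.65 (SE 0.10, edgeR adjusted p = 0.000543). Males of both groups did not overlap, and this was the only difference of a member beyond 1.5-fold in either sex. P2ry12 was at 9938 to 12490.0 CPM in WT males and at 6498 to 8601 CPM in Homo-cKO males (-0.49, SE 0.09, edgeR adjusted p = 0.00232). The 2 WT females had 8183 and 9619.6 CPM of P2ry12, within the 7720.4 to 9986 CPM of the 5 Homo-cKO females (-0.03, SE 0.11, edgeR adjusted p = 0.931). For P2ry13 the 2 WT females had 3792 and 3989 CPM, and all 5 Homo-cKO females were lower, at 3132 to 3697 CPM (-0.21, SE 0.12, edgeR adjusted p = 0.424).

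The difference between the sexes in the genotype effect was tested directly. It was 0.46 for P2ry12 (SE 0.14, unadjusted p = 0.00380) and 0.43 for P2ry13 (SE 0.16, unadjusted p = 0.0115), both from edgeR's fit over all genes, and both had an adjusted p of 0.908. No gene of all tested passed (0.0%), while 644 had an unadjusted p below 0.05, and limma-voom also called none. The female arm rests on 2 WT mice, and the value for P2ry12 was 0.36 without the female F1 and 0.59 without the female F2. For the other 5 members it lay between -0.10 and 0.11. Against Het-cKO mice the females alone (5 against 4) had P2ry13 lower by a log2 fold change of -0.36 (SE 0.06, edgeR adjusted p = 0.00377), with P2rx7 (-0.32, adjusted p = 0.0148) and Entpd1 (-0.23, adjusted p = 0.0469) also called, while the males alone (5 against 3) gave no call of a member. Over all genes tested, more were likewise called in these females than in these males, as counted in the closing section on processing. Whether the sexes differed against Het-cKO mice was not tested. Females and males over all genotypes did not differ in any member, with log2 differences from -0.04 to 0.08 and 0.0852% of all genes tested called.

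**Figure D4:**
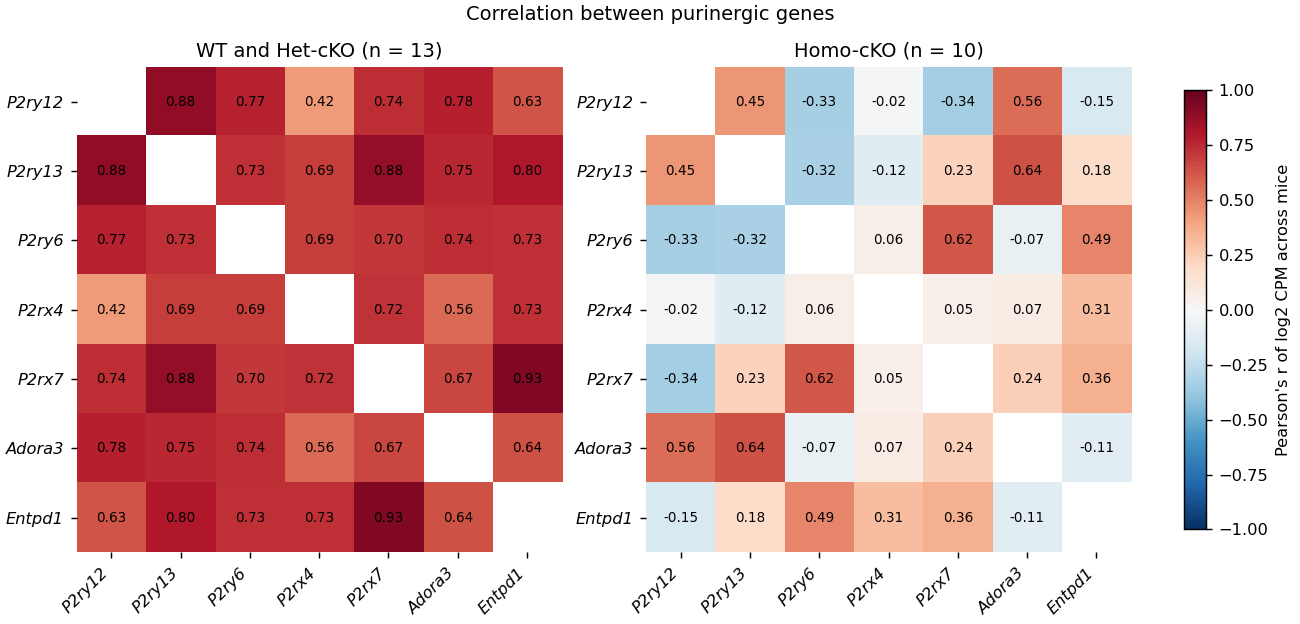
Pearson's r of log2 CPM between each pair of the 7 purinergic genes across the 13 WT and Het-cKO mice and across the 10 Homo-cKO mice, printed in each cell and coloured from -1 (blue) to 1 (red). All 21 values are positive in WT and Het-cKO mice, and 13 of 21 in Homo-cKO mice. Over pairs of all genes tested 49.6% and 49.9% are positive.

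Mice that had more of 1 member tended to have more of the others among WT and Het-cKO mice. Over these 13 mice the 21 pairs had Pearson's r of log2 CPM between 0.42 and 0.93, with a median of 0.73, beside a median of -0.0034 over all pairs of genes tested and of 0.080 over pairs of the 1807 genes with a mean of at least 100 CPM. For deviations from the means of each genotype and sex the members' median was 0.62 and all 21 stayed positive, from 0.22 to 0.96. In a permutation test over the pooled 13 mice, which does not keep genotype and sex apart, 20 of the 21 pairs passed after adjustment. The share of pairs of all genes that would pass this test was not computed. The highest was P2rx7 with Entpd1 (r = 0.93, permutation p = 2e-05, adjusted p = 0.00042, Spearman's rho = 0.85, permutation p = 0.00037), and r was 0.87 without the 2 mice farthest from the median of P2rx7. In every pair these 2 mice were chosen by the first gene named alone, so mice extreme in the second gene could stay. The neighbours P2ry12 and P2ry13 had r = 0.88 (permutation p = 0.00019, adjusted p = 0.00133, rho = 0.85, permutation p = 0.00042) and 0.69 without the 2 farthest mice. P2rx4 and P2rx7 had r = 0.72 (permutation p = 0.00523, adjusted p = 0.00845, rho = 0.66, permutation p = 0.0158) and 0.82 without them. Over all 21 pairs r lay between 0.07 and 0.90 without the 2 farthest mice. The WT male M1 had the highest level of 6 members among these 13 mice. Among the 10 Homo-cKO mice the lowest r was -0.34, the median 0.07 and the highest 0.64. In the same mice the median was -0.0009 over all pairs of genes tested. It was 0.023 over pairs of the genes with a mean of at least 100 CPM. No pair of members passed after adjustment in Homo-cKO mice. There 1 pair, P2ry13 with Adora3, had an unadjusted permutation p below 0.05 (r = 0.64, permutation p = 0.0476, rho = 0.50, permutation p = 0.144), with r = 0.14 without the 2 farthest mice. Whether r differed between these groups of mice was not tested. The SD of most members was smaller in Homo-cKO mice, as for P2ry13 (297 CPM, against 853 in WT and 480.5 in Het-cKO mice). For P2ry6 it was larger (40.4 CPM, against 27.3 and 37.8). For P2ry12 it was 926 CPM, against 1455 in WT and 800 in Het-cKO mice. For Adora3 it was 9.34 CPM, close to the 9.41 CPM of WT mice.

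The genes whose log2 CPM followed each member most closely over all 23 mice were named by Pearson's r, as a description, since mice differ in genotype and share library composition. P2ry13 was followed most closely by Pttg1ip (r = 0.95), Tmbim6 (0.94) and Ptpra (0.94), and the first of these also led for Adora3 (0.89), followed by Tmbim6 (0.89) and Tmem173 (0.88). P2ry12 was followed by Rtn3 (0.90), Serinc3 (0.90) and Jam2 (0.88). For deviations from the means of each genotype and sex, r was lower for every pair named in this paragraph. It then lay between 0.61 (P2rx4 with Lgals3bp) and 0.92 (P2rx7 with Nckap1l). For P2ry13 and Ptpra it was 0.86, for P2ry12 and Serinc3 0.83, for P2ry12 and Jam2 0.72 and for Adora3 and Pttg1ip 0.71. P2rx7 was followed by Nckap1l (0.94), Tnfrsf1b (0.94) and Atp2a2 (0.94), and Entpd1 by Slco2b1 (0.90), Fads1 (0.89) and Lman1 (0.88). The closest were less close for P2rx4, with Idua (0.82), Mboat7 (0.77) and Lgals3bp (0.76), and for P2ry6, with Eif2ak3 (0.81), Kdm4b (0.79) and Tmem260 (0.77).

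**Figure D5:**
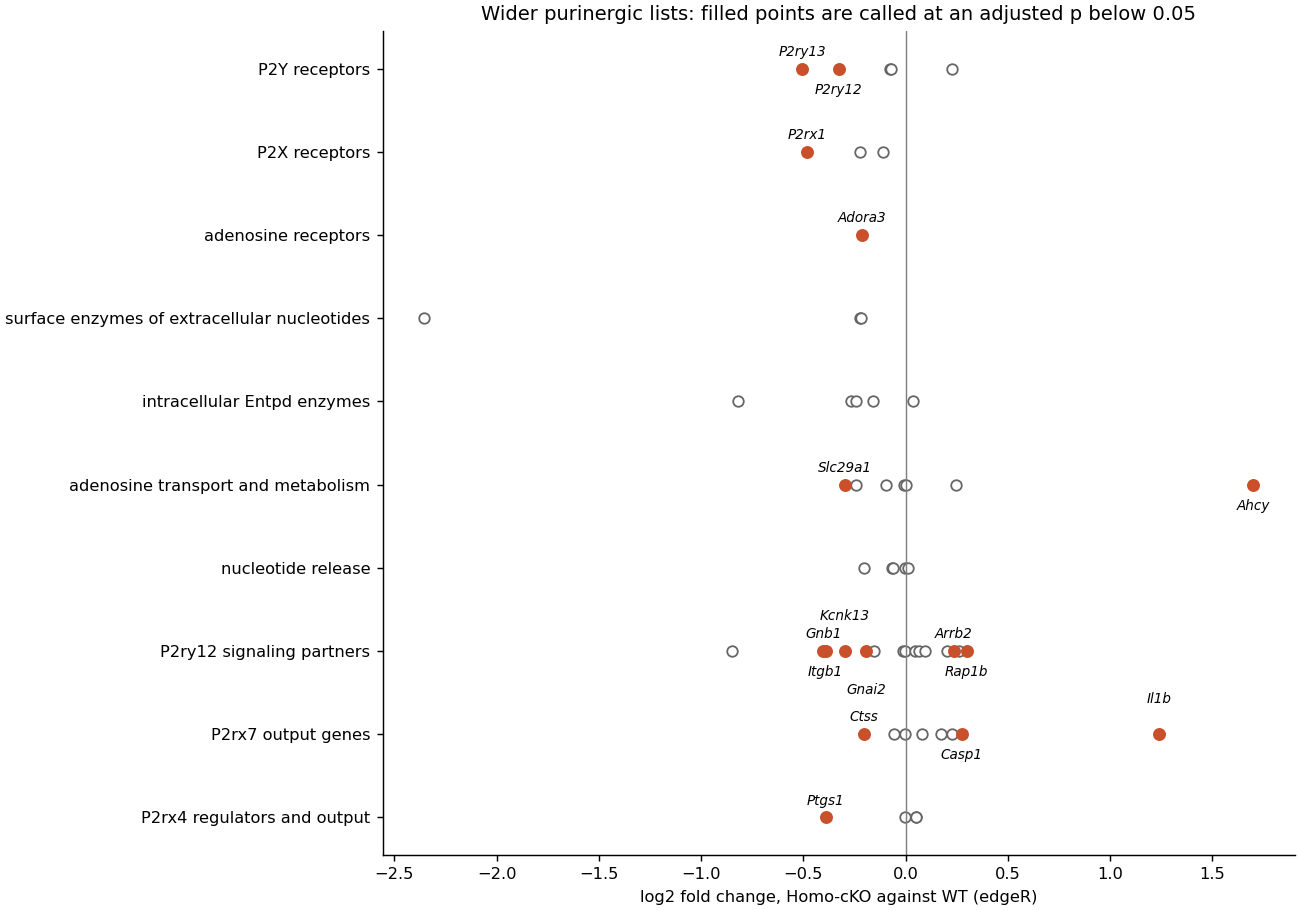
Log2 fold changes in Homo-cKO against WT mice (horizontal axis) for the genes tested and reported here in each of 10 lists of the purinergic pathway (rows), 1 point per gene, filled and named where the adjusted p was below 0.05. The receptors called all lie below 0, while the lists of P2ry12 signaling partners and P2rx7 output genes hold genes called on both sides of 0.

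The rest of the pathway was described by lists of genes by role. Of 30 receptors and surface enzymes listed, the 7 members included, 12 were tested, and the other 18 had mean levels of at most 0.349 CPM over all mice. Among the latter were the ADP receptor P2ry1 (0.00903 CPM), the adenosine receptor Adora2a (0.0314 CPM) and Nt5e (0.114 CPM), the enzyme CD73 that makes adenosine from AMP. These microglia thus had counts of the first enzyme of the chain from ATP to adenosine but hardly any of the second. Of the 5 tested genes that were not members 1 was called in Homo-cKO against WT mice, P2rx1, another ATP-gated channel. It was at 36.1 ± 3.95 CPM in WT mice (SD, n = 6) and 26.8 ± 5.18 CPM in Homo-cKO mice (n = 10), with a log2 fold change of -0.48 (SE 0.10, edgeR adjusted p = 0.00385). By role, 2 of 5 P2Y receptors, 1 of 3 P2X receptors, 1 of 1 adenosine receptors and 0 of 3 surface enzymes tested were called lower, and none was called higher. Over all genes tested these shares were 7.09% lower and 5.66% higher. The 5 genes counted as P2Y receptors include P2ry10b, and whether its receptor binds nucleotides was not examined. Enpp2 (autotaxin), which makes lysophosphatidic acid and is abundant in choroid plexus and oligodendrocytes, was at 9.59 ± 9.85 CPM in WT and 1.60 ± 1.65 CPM in Homo-cKO mice. It was called in Homo-cKO against Het-cKO mice alone (-4.57, edgeR adjusted p = 0.000495). Its mean over all mice, 15.8 CPM, was above both means, so the mean was highest in Het-cKO mice. Het-cKO against WT mice had an unadjusted p of 0.0162 from edgeR and was not called.

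None of the 5 intracellular relatives of Entpd1 was called in Homo-cKO against WT mice. Those of the highest CPM were Entpd4 with a log2 fold change of -0.16 (SE 0.12, edgeR adjusted p = 0.420) and Entpd6 with 0.04 (SE 0.10, edgeR adjusted p = 0.872). None of the 5 genes tested for nucleotide release was called either. Among these Lrrc8d, a subunit of volume-regulated anion channels, had 0.01 (SE 0.09, edgeR adjusted p = 0.967) and Ano6, a lipid scramblase, had -0.07 (SE 0.11, edgeR adjusted p = 0.763). Of 7 genes of adenosine transport and metabolism 1 was called lower and 1 higher, beside 7.09% and 5.66% of all genes tested. Slc29a1, the equilibrative transporter that carries adenosine across the membrane, was at 242 ± 33.0 CPM in WT and 197 ± 23.6 CPM in Homo-cKO mice (-0.29, SE 0.09, edgeR adjusted p = 0.0306). Ahcy, which splits adenosylhomocysteine into adenosine and homocysteine, was at a low 1.09 ± 0.696 CPM in WT and 3.41 ± 1.77 CPM in Homo-cKO mice (1.70, SE 0.46, edgeR adjusted p = 0.0161).

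Of 15 signaling partners of P2ry12 that were tested, 4 were called lower, 2 higher and 9 not, beside 12.7% called in either direction over all genes tested, with a median log2 fold change of -0.00099. Gnai2, an inhibitory G protein alpha subunit, had a log2 fold change of -0.19 (SE 0.05, edgeR adjusted p = 0.0123). Gnb1, a G protein beta subunit, had -0.40 (SE 0.12, edgeR adjusted p = 0.0333), and Itgb1, the integrin beta chain of adhesion, had -0.39 (SE 0.10, edgeR adjusted p = 0.00830). Kcnk13, which encodes THIK-1, the potassium channel that P2ry12 opens and that sets the resting potential of microglia, was at 198 ± 31.9 CPM in WT and 161 ± 15.8 CPM in Homo-cKO mice (-0.30, SE 0.09, edgeR adjusted p = 0.0316). The genes called higher were Rap1b, a small GTPase, with 0.30 (SE 0.06, edgeR adjusted p = 0.00235) and Arrb2, the arrestin that ends receptor signaling, with 0.24 (SE 0.07, edgeR adjusted p = 0.0252). The other inhibitory alpha subunits were not called, with log2 fold changes of -0.00099 for Gnai3 (edgeR adjusted p = 0.996) and -0.85 for Gnai1 (edgeR adjusted p = 0.498).

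Of 8 genes of the P2rx7 output 2 were called higher, 1 lower and 5 not, with a median log2 fold change of 0.13. Of all genes tested, 5.66% were called higher and 7.09% lower. Casp1, the inflammasome protease, rose from 38.8 ± 1.74 CPM in WT to 46.5 ± 5.14 CPM in Homo-cKO mice (0.28, SE 0.08, edgeR adjusted p = 0.0171), and its substrate Il1b from 1.73 ± 0.948 to 4.21 ± 1.85 CPM (1.24, SE 0.40, edgeR adjusted p = 0.0409). Ctss, a secreted lysosomal protease, had -0.20 (SE 0.07, edgeR adjusted p = 0.0492). Among the regulators and output genes of P2rx4, Ptgs1, the cyclooxygenase of prostaglandin synthesis, was called lower (-0.39, SE 0.08, edgeR adjusted p = 0.00166). Irf8 and Irf5, regulators of P2rx4 in reactive microglia, had log2 fold changes of 0.05 each (SE 0.04 and 0.05) and were not called in this comparison. The genes called in the lists of signaling partners and output genes thus went in both directions, while the 4 receptors called were all lower.

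The same lists were read in Homo-cKO against Het-cKO mice, where 11.7% of all genes tested were called lower and 11.1% higher. Of the 12 receptors and surface enzymes tested, P2ry13 and Enpp2 were called. Among the intracellular relatives of Entpd1, Entpd7 had a log2 fold change of -0.36 (edgeR adjusted p = 0.00496) and Entpd4b, a near copy of Entpd4 that may share its reads, had -1.20 (edgeR adjusted p = 0.0456). Of 15 partners of P2ry12, 3 were called lower and 1 higher, namely Gnai2 (-0.18, edgeR adjusted p = 0.00768), Pik3r5 (-0.26, edgeR adjusted p = 0.00743), the scarce Gnai1 and Rap1b (0.46, edgeR adjusted p = 1.4e-05). The inhibitory subunit Gnai2, the small GTPase Rap1b, Casp1, Il1b and Ptgs1 were called in both comparisons, which share the Homo-cKO mice. Casp1 and Il1b had log2 fold changes of 0.36 (edgeR adjusted p = 0.000997) and 1.32 (edgeR adjusted p = 0.0149), and Ptgs1 had -0.35 (edgeR adjusted p = 0.00130). Irf8 was called in this comparison (0.19, edgeR adjusted p = 0.00255), as was Calhm2, a channel subunit of nucleotide release (-0.31, edgeR adjusted p = 0.0181). No gene of any list was called in Het-cKO against WT mice.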

How the data were processed

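RNA of sorted microglia was sequenced from 23 mice (6 WT, 7 Het-cKO, 10 Homo-cKO). Another 2 labelled samples, a WT female and a Het-cKO male, have no column and were not analysed here; the study's methods state that 1 of each was removed for sequencing quality. The authors aligned reads to mm10 (an Ensembl gene model), and the deposited values are expected counts per gene estimated with RSEM, normalized neither for depth nor length. The authors named DESeq2 for their tests, and the design formula is not given in the sources used here.

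Expected counts were rounded to whole numbers. Identifiers were matched to GRCm38 symbols (42929 of 43411). Genes were kept by edgeR's filterByExpr (12908) and libraries normalized by TMM. All 23 libraries entered a quasi-likelihood fit in edgeR 4.0.16 (R 4.3.3) with terms for genotype and sex, and p-values were adjusted by the Benjamini-Hochberg method over all genes kept. Standard errors come from the fold change and its test statistic, and 95% intervals use the normal quantile. The genotype effect by sex and the animal-number ranges had fits of their own. Log2 CPM used a prior count of 2. Correlations were tested with 100000 permutations, two-sided. The scripts were tested on simulated data. Alternatives were DESeq2 1.42.0, limma-voom (limma 3.58.1), other normalizations, filters, terms and sample choices. Fits without the 4 mice of Fos above 100 CPM, and those leaving mice out of the comparison between sexes, were chosen after seeing the data.

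The members, the lists and the tests were chosen with earlier results of these data known. Named were all members, every gene of a pathway list that was called in Homo-cKO against WT mice (except a result that is not reported here), otherwise the 2 of the highest mean CPM in a list, and the 3 genes most correlated with each member. Genes named by other criteria (Entpd7, Entpd4b, Gnai1, Pik3r5, Calhm2, Nt5e, P2ry1, P2ry10b, Gnai3, Pecam1, Aldoc, Adora2a, Irf8 and Irf5) were chosen after their values were seen. The same holds for Snap25, Nrgn, Gad1, Ccr2, Mbp, Mobp and Slc1a3. Overlapping genes and shared sequence were found from the annotation and from 25-base sequences of transcripts.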

Additional observations from a re-analysis of the deposited data

How the results depend on the processing

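The direction in Homo-cKO against WT mice was negative for every member under every alternative run. P2ry13 was called in 13 of 14 alternatives that did not leave out 1 mouse, P2ry12 in 12 and Adora3 in 8. The number of members called was 1 with the Homo-cKO mice of range 03xx alone, 0 in females alone and 0 with a fold change above 1.5 required, against 3. Leaving out 1 mouse gave 2 to 5 members called, 2 without the WT male M1 and 5 without the WT male M2. The number of genes called fell from 1645 to 806 with range 04xx alone, 38 in females alone, 401 in males alone, 439 with the fold change and 1062 without the 4 mice of high Fos, and was 1060 to 1638 with 1 mouse left out, lowest without the WT male M1.

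In Homo-cKO against Het-cKO mice the number of members called was 2 in a fit of both groups alone, 3 in females alone and 0 with range 04xx alone, in males alone, with the fold change or without the mice of high Fos, against 1. With 1 mouse left out it was 1 to 3, namely 3 without the Het-cKO male M1 and 2 without the Homo-cKO mice F3 or M1. Genes called were 1433 with range 04xx alone, 1513 in females, 402 in males, 854 with the fold change and 1898 without the mice of high Fos, and 2284 to 3024 with 1 mouse left out, against 2936. P2ry6 turned to 0.0041 with range 03xx alone and 0.18 in males alone, and P2rx4 to 0.16 in males alone. In Het-cKO against WT mice DESeq2 called 8 genes, and leaving out 1 mouse gave 0 to 1. In females alone the members were reversed, P2ry12 at 0.15, P2ry13 at 0.14, P2ry6 at 0.12, P2rx4 at 0.12, P2rx7 at 0.11, Entpd1 at 0.050 and Adora3 at 0.039. In males alone they were all negative and over 1.5 times the values over both sexes, with P2ry13 at -0.47, P2ry12 at -0.31, P2rx4 at -0.27, Adora3 at -0.25, Entpd1 at -0.22, P2ry6 at -0.20 and P2rx7 at -0.20, none called. With 1 mouse left out P2ry13 lay between -0.29 and -0.11, P2ry12 between -0.22 and -0.069, P2rx4 between -0.11 and -0.0087, Entpd1 between -0.15 and -0.014, P2ry6 between -0.056 and 0.028 and P2rx7 between -0.080 and 0.033. For the genotype effect by sex P2rx7 was -0.011 by limma-voom, and with 1 mouse left out P2rx4 lay between -0.057 and 0.10, P2rx7 between -0.10 and 0.093 and Entpd1 between -0.061 and 0.16, with 0 to 7 genes called in all. Between the Homo-cKO ranges limma-voom called 22 genes, against 57. The cause of these changes was not tested, beyond the smaller samples that the subsets have by construction.

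No paired analysis was possible because the labels give no replicate numbers shared between groups. Depth did not limit the members, but no error of sorting or library preparation can be measured with 1 library per mouse. No value of a member stood apart from its group by Dixon's test among 21 groups tested.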
